A study of Homo sapiens with 6 samples.

Results

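The insulin-like growth factor (IGF) system was examined in SiHa cells through 10 genes: the IGF-binding proteins IGFBP1 to IGFBP7, the IGF1 receptor IGF1R, the insulin receptor INSR and the insulin receptor substrate IRS1. The family was chosen because the mRNA of IGFBP4 was lower after knockdown of CNN3. The other 9 genes were taken by their names, but with earlier results of these data known. The 10 genes were found by their Ensembl identifiers among the 48162 genes of the count table, and 8 of the 10 were among the 15860 genes that held enough counts to be tested. SiHa is an established human cervical cancer cell line, and CNN3 encodes calponin 3, an actin-binding protein. The group called si-CNN3 received the small interfering RNA (siRNA) si-CNN3#1 directed at CNN3, and the group called si-NC received a control siRNA. Each group had 3 samples, whose RNA was taken 48 h after transfection, with fresh medium after 24 h according to the labels (the study's methods give another time for this step). Normalised counts are given as CPM, a sample's counts scaled to a common library size. Both groups were the same cell line grown in the same medium, the knockdown rested on 1 siRNA sequence, and the study's methods describe the 3 samples of a group as independent assays.

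IGF1 and IGF2 are small secreted hormones that bind IGF1R at the cell surface, and insulin binds the related receptor INSR. Both receptors are tyrosine kinases that phosphorylate adaptor proteins such as IRS1, from which the PI3K-AKT and RAS-MAPK branches start. IGF-binding proteins hold IGFs outside the cell with high affinity and so limit or prolong their access to the receptor, and proteases such as pappalysin release the hormone by cutting the binding protein.

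The sequences of both siRNAs and their short matches in the 10 genes are shown first, because an siRNA can also act on other mRNAs through bases 2 to 8 of its guide strand, the seed. The sense strands below are 19 bases long and come from the sample labels. Capitals mark the 7 bases that pair with the seed.
si-CNN3#1 sense strand: gcagaugggaaCCAACAAa
si-NC sense strand: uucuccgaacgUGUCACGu
CNN3, bases 893 to 899 of transcript CNN3-201: gcagatgggaaCCAACAAatgtgccagcc
IGFBP4, bases 646 to 652 of transcript IGFBP4-201: gggtgaccaccCCAACAAcagcttcagcc
IGF1R, bases 2716 to 2722 of transcript IGF1R-219: ggacctcccgcCCAACAAggacgtggagc
IGFBP5, bases 3786 to 3792 of transcript IGFBP5-201: ggagaccgcctCCAACAAcgaatttgggg
IGFBP5, bases 6078 to 6084 of transcript IGFBP5-201: gaaataaaaaaCCAACAAaggatctcaca
The whole sense strand of si-CNN3#1 matched CNN3 at the site shown and matched none of the sites in IGFBP4, IGF1R and IGFBP5. A further seed site of CNN3, at bases 1130 to 1136, held no match of the whole strand. In GRCh38 the CNN3 site shown lies in the coding part of exon 6 of 7 at chr1:94899504-94899510 on the minus strand. The IGFBP4 site lies in coding exon 2 of 4 at chr17:40453006-40453012, and the IGF1R site in coding exon 8 of 21 at chr15:98913127-98913133, both on the plus strand. The IGFBP5 sites lie after the stop codon in exon 4 of 4 on the minus strand, at chr2:216674528-216674534 and chr2:216672236-216672242. The 7 bases were thus present in 3 of the 10 genes, against 23.7% of 12697 tested genes searched in the same way (1 coding transcript each). Exon bases outside that transcript were not searched, and for INSR it held 4721 of 10451 merged exon bases. After the stop codon they were present in 1 of the 10 genes, against 7.85% of all genes. The matching 7 bases for si-NC were present after the stop codon of IGFBP1 and IGF1R, 2 of the 10 genes, where 2.76% of all genes held them. Anywhere in the transcript they were present in 6.88% of all genes. Whether any of these matches had a part in the values below was not tested.

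The knockdown was visible in CNN3 itself, which held 490, 514 and 574 counts after si-CNN3 and 1134, 1288 and 1234 after si-NC. The groups did not overlap, and the log2 fold change was -0.97 (standard error, SE, 0.055, adjusted p = 2.04e-20), a level of 50.9% of the control. Total counts on genes ran from 18147028 to 19026341 with si-CNN3 and from 20287139 to 24976517 with si-NC, so every si-NC sample was deeper. No sample was merged with another, since chi-square over genes was 1.56 to 1.98 times its degrees of freedom within a group. Of 10 epithelial markers, 9 had a mean of at least 1 CPM, with a summed level of 1430 to 1489 CPM with si-CNN3 and 1464 to 1531 CPM with si-NC (3 called higher and 2 lower). KRT5 was the marker under 1 CPM. Of 8 fibroblast markers, 5 reached 1 CPM, and their summed level was 18.0 to 18.3 CPM against 16.8 to 18.4 CPM, and none of the 4 endothelial markers present in the table reached 1 CPM. The 6 immune markers summed to 120.2 to 128 CPM with si-CNN3 and 145 to 156 CPM with si-NC, and CD3E and CD14 were the 2 with at least 1 CPM. CD14 held 121 and 149 CPM and showed a log2 fold change of -0.30 (SE 0.033, adjusted p = 7.88e-10). PTPRC, the common leukocyte marker, had a mean of 0.553 and 0.632 CPM. The part of CD14 in the values of the 10 genes was not tested. In bulk RNA, fewer cells of a type and less RNA per cell cannot be told apart.

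Levels can be compared between genes only per length, and for this the authors' FPKM values (counts scaled by gene length and library total) were used. In si-NC, IGFBP6 had the highest level of the 10 genes, with 275 ± 7.16 FPKM (SD, n = 3), followed by IGFBP4 with 244 ± 3.42 FPKM. These stood above 97.6% and 97.2% of all tested genes. IGFBP3 followed with 84.0 ± 5.71 FPKM, above 88.7% of tested genes. The receptors IGF1R and INSR had 23.2 ± 0.635 and 22.1 ± 1.18 FPKM, and their 3 values overlapped. IRS1 had 9.52 ± 0.503 FPKM and IGFBP7 7.34 ± 0.506 FPKM. IGFBP5 had 1.84 ± 0.639 FPKM and IGFBP2 0.148 ± 0.0474 FPKM, and IGFBP1 was listed at 0. Apart from IGF1R and INSR, the 3 si-NC values of neighbours in this order did not overlap.

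The order in the middle depended on the gene length. The FPKM values imply a length of 1976 bases for IGF1R and of 3244 bases for IRS1, whereas the coding transcripts in GENCODE 29 have 12235 and 9705 bases. With the transcript length, IGF1R came to 3.75 FPKM and moved from the fourth to the sixth place, behind INSR (12.6 FPKM) and IGFBP7 (6.89 FPKM). The INSR transcript used has 4721 bases, 4146 of them coding, whereas the merged exons of INSR have 10451 bases. The level and place of INSR, and its distance from IGF1R, therefore also depend on the transcript chosen. IRS1 came to 3.18 FPKM and moved to the seventh place. The first 3 places, IGFBP6, IGFBP4 and IGFBP3, were the same with both lengths, and so were the last 3.

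**Figure D1:**
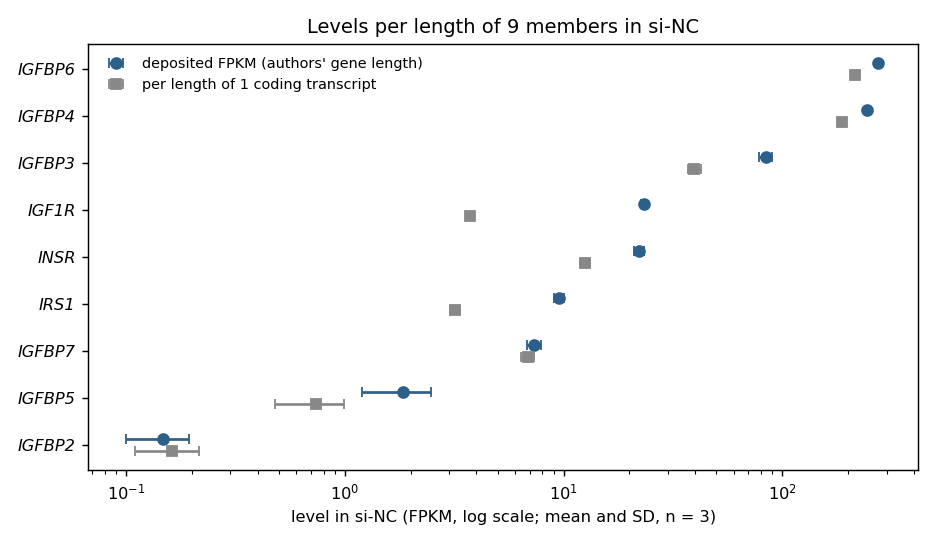
Levels of 9 of the 10 genes in si-NC in FPKM on a log axis, as mean and SD of 3 samples, with the authors' gene length (circles) and with the length of 1 coding transcript (squares). IGFBP6 and IGFBP4 are at 275 and 244 FPKM, and IGF1R moves from 23.2 to 3.75 FPKM with the longer transcript length; IGFBP1, listed at 0, is not drawn.

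The comparison of the groups asked which mRNAs differed 48 h after the knockdown. IGFBP6 was lower and IRS1 was higher with si-CNN3, whereas IGFBP3, IGFBP5, IGFBP7, IGF1R and INSR did not pass the test. IGFBP4 was lower as well, but its lower value chose the family, so this is a description and not a test result. The quasi-likelihood test of edgeR was used, its p-values were adjusted by Benjamini-Hochberg over all 15860 tested genes, and the threshold was 0.05. Of these genes, 13.3% passed in either direction, 6.17% were called higher after si-CNN3 and 7.14% were called lower. The higher genes were 46.3% of the calls, and 60.0% of them when samples were scaled by total counts alone. Of the 7 tested genes of the family other than IGFBP4, 2 were called, 1 higher and 1 lower. The 2 groups of 3 samples did not overlap for 3 of the 8 tested genes, IGFBP4 included, and for 28.2% of all tested genes. The median log2 fold change of the 7 genes was 0.0068, beside 0.0023 over all tested genes. The family was selected on this contrast in the same 6 samples, so nothing is read from these counts. IGFBP1 and IGFBP2 were too low to be tested.

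**Figure D2:**
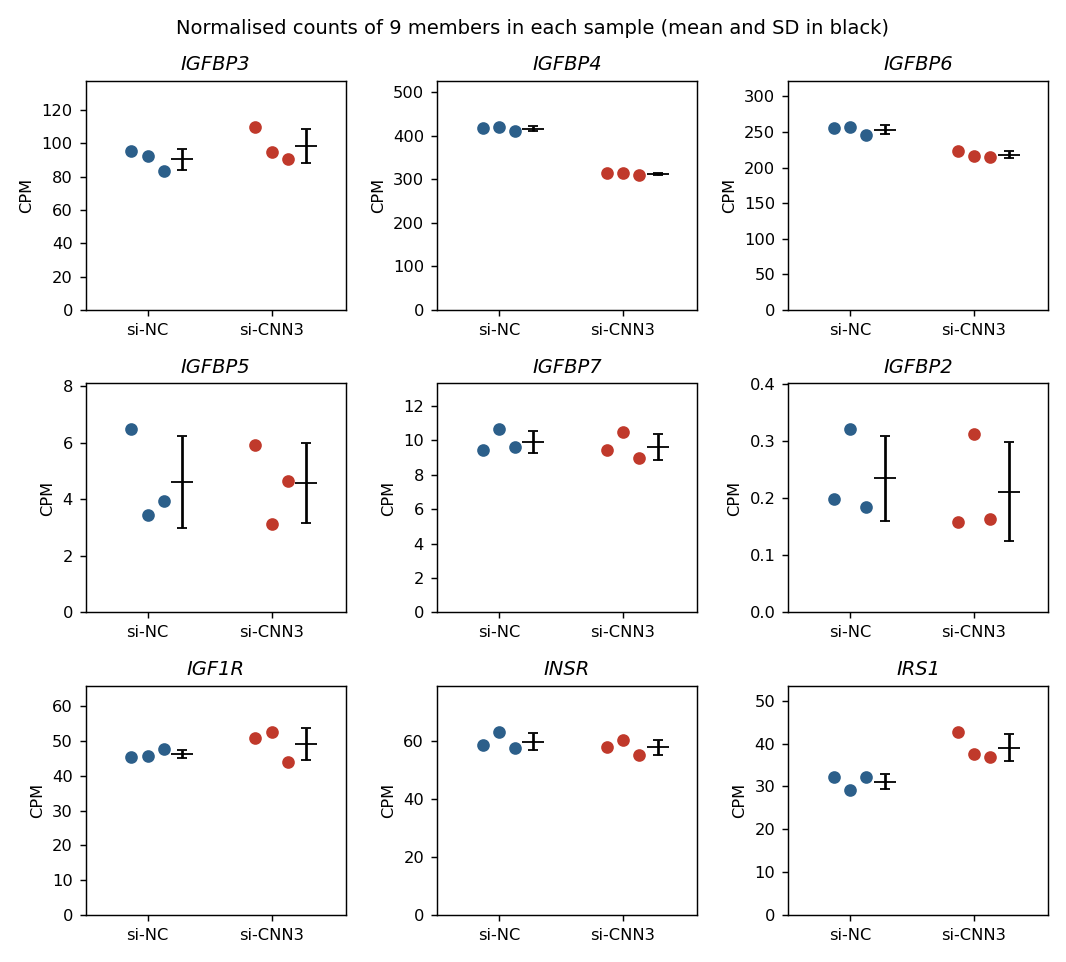
Normalised counts in CPM for each of the 3 si-NC (blue) and 3 si-CNN3 (red) samples of 9 genes, with the mean and SD of each group in black; every axis starts at 0. The groups are apart for IGFBP4, IGFBP6 and IRS1 and overlap for the other 6 genes.

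IGFBP4, a binding protein known mainly for restraining IGF action until it is cut by pappalysin, was the gene whose lower value chose the family, so its values are a description without a test. It lies on the plus strand of chromosome 17 (GRCh38, chr17:40443461-40457731) and has 1 transcript in GENCODE 29. IGFBP4 had 314, 314 and 309.7 CPM in si-CNN3 replicates 1, 2 and 3, and 418, 420.1 and 410.3 CPM in the si-NC replicates. The 3 si-CNN3 values lay within 5 CPM of each other and far below the lowest si-NC value. The means were 313 ± 2.60 CPM with si-CNN3 and 416 ± 5.21 CPM with si-NC (SD, n = 3), from 5654 to 6032 and from 8391 to 10456 counts. The log2 fold change was -0.41 (SE 0.026), a level 24.9% below the control, and it ran from -0.42 to -0.39 over the 16 other settings tried. The change was smaller in size than that of CNN3 itself.

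IGFBP6, a binding protein that prefers IGF2 over IGF1, was the gene of the family called lower by the test. It lies on the plus strand of chromosome 12 (chr12:53097436-53102345). IGFBP6 had 224, 216 and 215 CPM in si-CNN3 replicates 1, 2 and 3, and 256, 257 and 246 CPM in the si-NC replicates. The highest si-CNN3 value lay below the lowest si-NC value. The log2 fold change was -0.21 (SE 0.028, adjusted p = 5.29e-08), a level 13.7% below the control. It passed the threshold in all 16 other settings.

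IGFBP3, the main carrier of IGFs in blood, lies 18.6 kb from IGFBP1 on the minus strand of chromosome 7 (chr7:45912245-45921874). It had 109.8, 94.7 and 90.8 CPM with si-CNN3 and 95.4, 92.3 and 83.5 CPM with si-NC. Replicate 1 of si-CNN3 was the highest sample, and the other si-CNN3 values lay within the range of the si-NC values. The log2 fold change was 0.12 (SE 0.044, 95% interval 0.035 to 0.21, adjusted p = 0.0536). This call turned with single samples. IGFBP3 was called when si-CNN3 replicate 2 (adjusted p = 0.0344) or 3 (0.00544) or si-NC replicate 1 (0.0148) or 2 (0.0452) was left out, whereas without si-CNN3 replicate 1 its log2 fold change was 0.036 (adjusted p = 0.698) and without si-NC replicate 3 it was 0.069 (adjusted p = 0.435). It passed in 8 of the 16 settings in all, among them the fit with the replicate number as a block (adjusted p = 0.00272). All 8 were edgeR fits. IGFBP3 did not pass with DESeq2 (adjusted p = 0.615) or in the limma fits with a filter (0.215 and 0.218). Nor did it pass with limma on all genes.

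The other binding proteins were low. IGFBP7, a secreted relative with weak affinity for IGFs, lies on the minus strand of chromosome 4 (chr4:57030773-57110385). It had 9.44, 10.5 and 8.98 CPM with si-CNN3 and 9.47, 10.6 and 9.60 CPM with si-NC. The groups overlapped, and the log2 fold change was -0.044 (95% interval -0.23 to 0.14, adjusted p = 0.830). Its exons share 270 bases with POLR2B on the other strand, a gene with 2248 to 3142 counts, and as it is not given in the sources used here whether the counting used strand, reads from that stretch cannot be told apart. IGFBP5, a binding protein that also attaches to the matrix, lies on the minus strand of chromosome 2 (chr2:216672105-216695525). It had 5.94, 3.12 and 4.66 CPM with si-CNN3 and 6.48, 3.46 and 3.94 CPM with si-NC. Replicate 1 was the highest of both groups, and the log2 fold change was 0.0068 with a wide 95% interval of -0.33 to 0.34 (adjusted p = 0.988).

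IGFBP2 lies 7.7 kb from IGFBP5 on the plus strand of chromosome 2 (chr2:216632828-216664436) and is a binding protein often raised in tumours. Its counts were 3, 6 and 3 after si-CNN3 and 4, 8 and 4 after si-NC, too few for a test. IGFBP1, a binding protein made mostly by liver and decidua and lowered by insulin, lies on the plus strand of chromosome 7 (chr7:45888357-45893668). No count fell on it in any of the 6 samples. A count of 0 allows up to 3 counts, which is 0.121 to 0.164 CPM in these samples and covers counting error only.

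The make-up of the binding proteins shifted with these values. The summed FPKM of IGFBP1 to IGFBP7 was 527 ± 13.6 with si-CNN3 and 612 ± 16.2 with si-NC (SD, n = 3). IGFBP3, IGFBP4 and IGFBP6 made up 98.3% and 98.5% of that sum. The share of IGFBP4 was 34.2%, 35.7% and 35.7% with si-CNN3 and 39.5%, 39.7% and 40.5% with si-NC, while the share of IGFBP3 was 18.9%, 17.0% and 16.6% against 14.3%, 13.8% and 13.1%. The groups did not overlap for either gene. Nor did they overlap for IGFBP6, with 45.1%, 45.5% and 46.0% against 44.7%, 45.0% and 44.9% (means 45.5% ± 0.437 and 44.9% ± 0.151). The share of IGFBP7 was also apart, at 1.37% ± 0.115 and 1.20% ± 0.0708. Shares of 1 sum are bound to each other, so a smaller IGFBP4 part can enlarge other parts without any rise in their own level. The size of the shares depended on the gene length: with the transcript length, the mean share of IGFBP3 was 11.4% with si-CNN3 and 8.81% with si-NC in place of 17.5% and 13.7%, and that of IGFBP4 was 37.4% and 41.7%, again without overlap of the groups. For each count on IGFBP4 there were 0.315 ± 0.0305 counts on IGFBP3 with si-CNN3 and 0.217 ± 0.0126 with si-NC. These shares and ratios contain IGFBP4 and were therefore not tested.

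**Figure D3:**
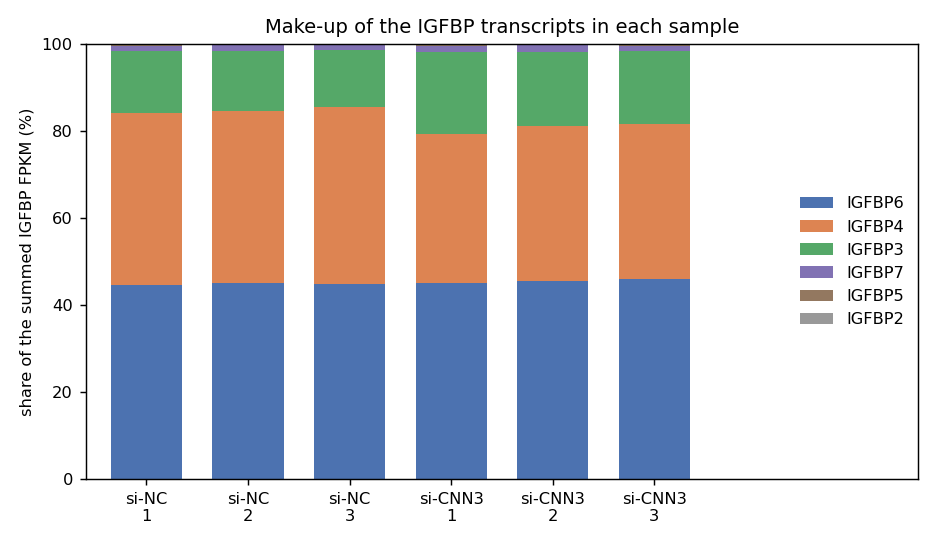
Share of each IGF-binding protein in the summed FPKM of IGFBP1 to IGFBP7, in percent, as 1 stacked bar per sample. The IGFBP4 part is 39.5% to 40.5% in si-NC and 34.2% to 35.7% in si-CNN3. The IGFBP3, IGFBP6 and IGFBP7 parts are larger in every si-CNN3 bar, and IGFBP5 and IGFBP2 are too small to see.

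Of the receptors and their substrate, IRS1 was called and both receptors were not. IRS1, the docking protein that passes the signal of both receptors to PI3K, lies on the minus strand of chromosome 2 (chr2:226731317-226799759). It had 42.7, 37.6 and 36.8 CPM with si-CNN3 and 32.1, 29.1 and 32.1 CPM with si-NC. All 3 si-CNN3 values lay above all si-NC values. The log2 fold change was 0.33 (SE 0.056, adjusted p = 1.16e-05), a level 25.9% above the control. It passed the threshold in 15 of the 16 other settings, the exception being limma fitted to log2(FPKM + 1) of all genes, low values included (adjusted p = 0.0690). IRS2, the related substrate named whatever its value, held 100, 107 and 120 counts against 142, 150 and 133 and showed a log2 fold change of -0.14 (SE 0.12, adjusted p = 0.515). There were 6.80 ± 1.23 counts on IRS1 for each count on IRS2 with si-CNN3 and 4.86 ± 0.339 with si-NC, a ratio that was not tested.

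IGF1R lies on the plus strand of chromosome 15 (chr15:98648539-98964530) and had 50.8, 52.7 and 44.0 CPM with si-CNN3 and 45.4, 45.7 and 47.7 CPM with si-NC. Replicate 3 of si-CNN3 was the lowest sample of both groups, and the other si-CNN3 samples were the highest. The log2 fold change was 0.089 (95% interval -0.011 to 0.19, adjusted p = 0.268), and it was 0.16 (adjusted p = 0.0274) without si-CNN3 replicate 3. INSR lies on the minus strand of chromosome 19 (chr19:7112255-7294034) and had 58.1, 60.3 and 55.1 CPM with si-CNN3 and 58.7, 63.2 and 57.6 CPM with si-NC. The groups overlapped, and the log2 fold change was -0.051 (95% interval -0.14 to 0.037, adjusted p = 0.522). The ratio of IGF1R to INSR counts was 0.849 ± 0.0434 with si-CNN3 and 0.775 ± 0.0528 with si-NC (SD, n = 3) and was not tested. IGF2R, the receptor that carries IGF2 to lysosomes, held 398 ± 19.0 CPM with si-CNN3 and 381 ± 6.85 CPM with si-NC. Its log2 fold change was 0.064 (SE 0.028, adjusted p = 0.128), without si-CNN3 replicate 3 it was 0.10 (adjusted p = 0.00991), and with total-count scaling it was 0.081 (adjusted p = 0.0300).

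**Figure D4:**
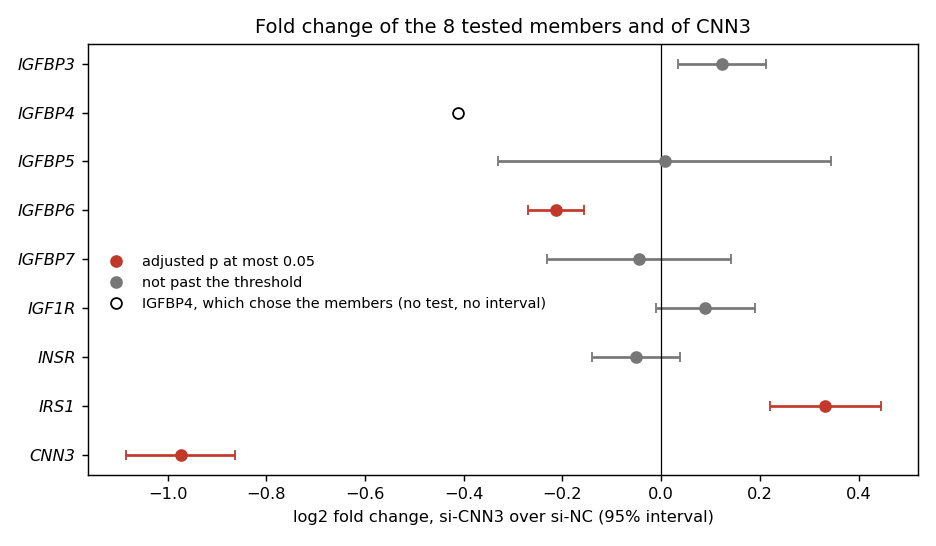
Log2 fold change of si-CNN3 over si-NC for the 8 tested genes and CNN3, with 95% intervals from edgeR. IGFBP6 (-0.21) and IRS1 (0.33) stand off 0 in opposite directions, IGFBP4 (open circle, -0.41) is drawn without an interval because it chose the family, and the interval of IGFBP5 is wide.

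The ligands were at or near the limit of detection. IGF1 had 1 to 3 counts and IGF2 0 to 4 counts in each sample, and INS had none. IGFALS, the acid-labile subunit that stabilises IGF complexes in blood, had 1 to 11 counts. None of the 4 was tested, and only mRNA of these cells was measured, not hormone in the medium.

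Of 11 proteases of the binding proteins and their regulators, 9 were tested, of which 4 were higher and 1 was lower with si-CNN3. The share called was 55.6%, beside 13.3% of all tested genes, and nothing is read from it. PAPPA, which encodes pappalysin, the protease that cuts IGFBP4, had 14.8 ± 0.457 CPM with si-CNN3 and 10.1 ± 0.710 CPM with si-NC (SD, n = 3) and a log2 fold change of 0.56 (SE 0.082, adjusted p = 7.39e-07). MMP2, a gelatinase, rose by 0.48 on the log2 scale (SE 0.063, adjusted p = 4.71e-08) and ADAM9, a membrane-bound protease, by 0.25 (SE 0.032, adjusted p = 1.30e-08). HTRA1, a secreted serine protease, was lower, with a log2 fold change of -0.29 (SE 0.041, adjusted p = 3.41e-07). The fifth gene, STC2, an inhibitor of pappalysin, was named after its value was seen and rose by 0.25 (SE 0.036, adjusted p = 6.17e-07). PAPPA passed in 15 of the 16 settings (adjusted p = 0.0578 with the limma fit to all genes), and the other 4 passed in all. The median log2 fold change of the list was 0.086. PAPPA2 had no count.

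The CCN proteins, matricellular proteins formerly counted among the IGFBP relatives, had 4 tested members, of which 2 were higher and none lower. Nothing is read from this share of 50.0%, beside 13.3% of all tested genes. CCN1 had 148 ± 6.36 and 103 ± 5.23 CPM and a log2 fold change of 0.52 (SE 0.035, adjusted p = 9.42e-18). CCN2, with a mean of 2.37 and 1.31 CPM, showed a log2 fold change of 0.84 (SE 0.22, adjusted p = 0.00584), and without si-CNN3 replicate 3 it was 0.65 (adjusted p = 0.0962). With limma on all genes CCN2 did not pass (adjusted p = 0.199). CCN3 and CCN5 did not pass. The median of the 4 genes was 0.35.

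Downstream of the receptors, most of the tested genes did not pass, as over all tested genes, of which 13.3% passed. The share called was 23.1% of the adaptors and 9.52% of the PI3K-AKT-mTOR branch. It was 30.0% of the RAS-MAPK branch and 38.5% of the negative regulators. Nothing is read from these shares. Of 13 tested adaptors, 1 was higher and 2 were lower. SHC1, which links receptors to RAS, fell by 0.13 on the log2 scale (SE 0.027, adjusted p = 2.68e-04), and SOS2, an exchange factor for RAS, fell by 0.19 (SE 0.047, adjusted p = 0.00377). SHC1 did not pass with limma on all genes (adjusted p = 0.0671), and SOS2 did not pass in any of the 3 limma fits (0.0563, 0.0563 and 0.146). GRB10, an adaptor that restrains both receptors, was low, with 12 to 29 counts, and rose by 0.87 (SE 0.30, adjusted p = 0.0449). GRB10 no longer passed when any sample other than si-NC replicate 1 was left out, with adjusted p-values between 0.0584 and 0.234. Nor did GRB10 pass with limma on all genes (adjusted p = 0.272). Of the 21 tested genes of the PI3K-AKT-mTOR branch, none was higher and 2 were lower. EIF4EBP2, a translation repressor controlled by mTOR, fell by 0.28 (SE 0.029, adjusted p = 4.19e-11). PIK3R1, the regulatory subunit of PI3K, fell by 0.12 (SE 0.040, adjusted p = 0.0277), and it no longer passed without si-CNN3 replicate 2 (adjusted p = 0.218) or si-NC replicate 3 (adjusted p = 0.228). Nor did it pass with total-count scaling (0.0626), DESeq2 (0.152) or the 3 limma fits (0.170, 0.172 and 0.336). The median of the adaptors was -0.0088 and that of the branch -0.011.

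In the RAS-MAPK branch, 2 of 10 tested genes were higher and 1 was lower. MAP2K1, the kinase MEK1, fell by 0.27 on the log2 scale (SE 0.037, adjusted p = 1.89e-07), whereas its relative MAP2K2 rose by 0.10 (SE 0.029, adjusted p = 0.0120) and the GTPase HRAS by 0.14 (SE 0.045, adjusted p = 0.0248). MAP2K2 did not pass without si-CNN3 replicate 1 (adjusted p = 0.0744) or si-NC replicate 1 (0.0670) or 3 (0.0707), and HRAS did not pass without si-CNN3 replicate 2 (0.0808) or 3 (0.0909) or si-NC replicate 2 (0.0938) or 3 (0.106). Of the 13 tested phosphatases and other negative regulators, 4 were higher and 1 was lower. DDIT4, an inhibitor of mTOR complex 1, fell by 0.33 (SE 0.028, adjusted p = 4.82e-14), and TRIB3, a pseudokinase that binds AKT, rose by 0.30 (SE 0.056, adjusted p = 7.83e-05). TRIB3 did not pass with limma on all genes (adjusted p = 0.0690). INPPL1, the lipid phosphatase SHIP2, rose by 0.13 (SE 0.028, adjusted p = 8.12e-04). PHLPP2, a phosphatase of AKT, rose by 0.10 (adjusted p = 0.0490) and did not pass when any of the 6 samples was left out (adjusted p from 0.0568 to 0.211). PPP2CA, named after its value was seen, rose by 0.097 (adjusted p = 0.0242) and did not pass without si-CNN3 replicate 2 (0.0629) or 3 (0.0640) or si-NC replicate 2 (0.158) or 3 (0.0583). With DESeq2, HRAS (adjusted p = 0.148), PHLPP2 (0.199) and PPP2CA (0.0929) did not pass either. Without the count filter, HRAS (adjusted p = 0.0526), PHLPP2 (0.125) and PPP2CA (0.0589) did not pass. With limma on all genes, MAP2K2 (adjusted p = 0.0607), HRAS (0.0554), PHLPP2 (0.155) and PPP2CA (0.0553) did not pass. PHLPP2 also did not pass in the limma fits with a filter (0.110 and 0.109). The medians of the RAS-MAPK genes and of the negative regulators were 0.0050 and 0.097.

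None of the 4 tested FOXO factors passed, nor did any of the 3 IGF2 mRNA-binding proteins or the 2 tested genes among the other receptors and binding proteins, IGF2R and IGFBPL1. Their median log2 fold changes were -0.031, 0.16 and 0.023. Over all lists, 13 of the 79 tested genes were higher and 7 were lower, 25.3% in all beside 13.3% of all tested genes, with a median log2 fold change of 0.010. The lists were drawn up with earlier results of these data known, so these shares say nothing particular to the pathway.

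**Figure D5:**
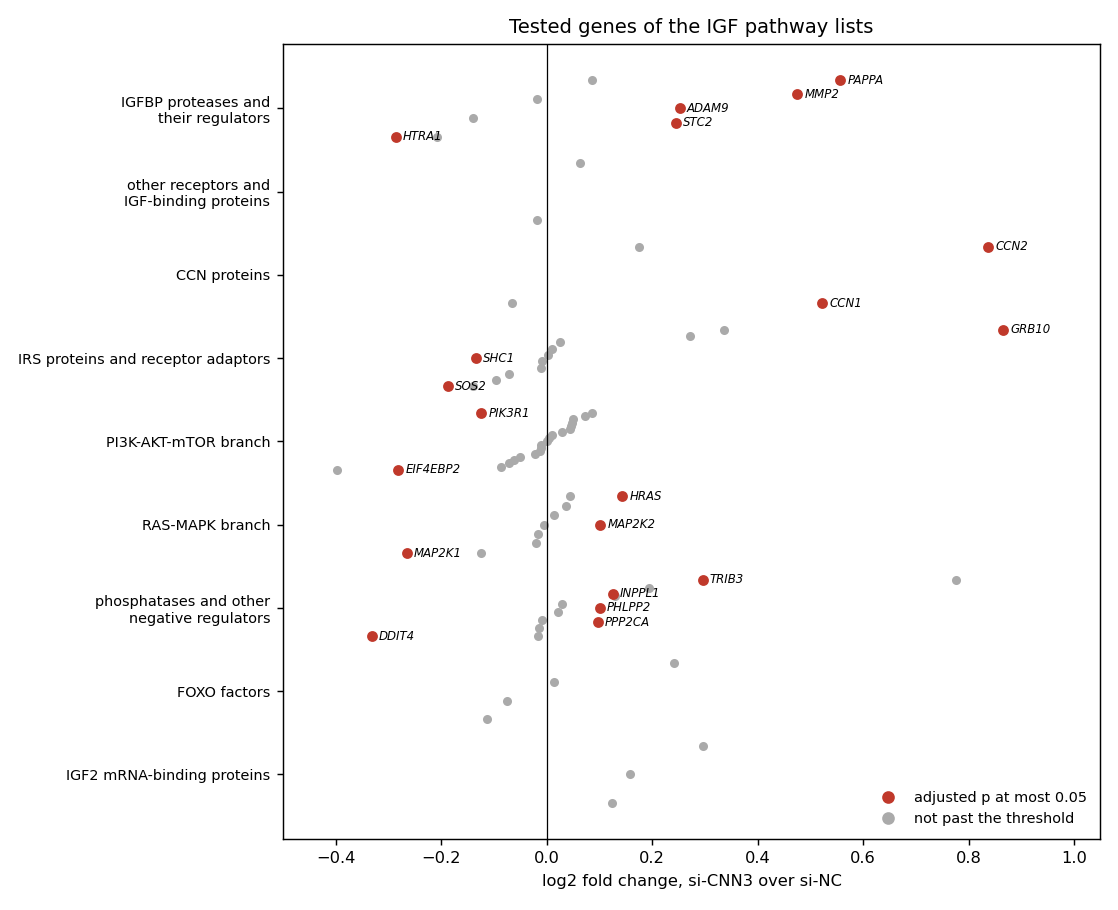
Log2 fold change of si-CNN3 over si-NC for the 79 tested genes of the IGF pathway lists, 1 row per list, with genes past the threshold in red and named; the height within a row only spreads the points. GRB10 (0.87), CCN2 (0.84), PAPPA (0.56), CCN1 (0.52) and MMP2 (0.48) are the red points furthest to the right, SOCS2 (0.78, adjusted p = 0.0832) lies among them in grey, and most genes of the PI3K-AKT-mTOR branch lie close to 0.

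The genes whose pattern over the 6 samples was most like that of IGFBP4 were sought among 9794 other tested genes with a mean of at least 10 CPM, by the root mean square difference of log2 CPM centred on each gene's mean. The closest named gene was CTSB, a lysosomal protease, at 0.0233, with 129 CPM in si-CNN3 and 174 CPM in si-NC. It was followed by TGM2, a transglutaminase, at 0.0238, by PFAS, an enzyme of purine synthesis, at 0.0240, and by TMEM30A, a subunit of phospholipid flippases, at 0.0243. TGM2 had 383 and 516 CPM, PFAS 96.0 and 124 CPM, and TMEM30A 189 and 255 CPM. One gene that the name tables do not pair with a symbol, ENSG00000152022, was closer than these, at 0.0197. These genes were picked for their likeness, so their fold changes of -0.44 (CTSB), -0.43 (TGM2 and TMEM30A) and -0.37 (PFAS) are a description.

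The 250 bases before the start of transcription in RefSeq (GRCh38.p14) were read for 8 of the 10 genes, in 10 windows. The motifs found in the 2 genes that were lower are shown in capitals, each with 10 flanking bases on either side.
IGFBP4, TATA box, chr17:40443411-40443436: cagggaccggTATAAAgtccggggga
IGFBP4, GC box, chr17:40443357-40443382: tccccctcgcCCGCCCcggctccccc
IGFBP6, FOXO motif, chr12:53097471-53097497: aatttgggaaGTAAACAgaaactggaa
IGFBP6, GC box, chr12:53097640-53097665: taagacagagGGGCGGcggcgggcag
Motifs were searched on both strands, and none of their letters contains another motif. The GC box was searched as GGGCGG. For the box bound by the TATA-binding protein, the letters were TATAAA. For FOXO factors, which act downstream of insulin and IGF receptors, the letters GTAAACA were searched. Of 35114 windows of this length, 42.6% held the first motif, 10.7% the TATA letters and 2.98% the FOXO letters. IGFBP4 was the only one of the 8 genes with the TATA box letters and IGFBP6 the only one with the FOXO letters. The windows of IRS1, which was higher, and of INSR each held 4 GC boxes, and their GC contents were 80.8% and 78.4%, against 71.6% for IGFBP4, 61.2% for IGFBP6 and a median of 58.0% over all windows. A match of letters is a description of the sequence and not evidence of a bound factor.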

How the data were processed

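SiHa cells (3 si-CNN3 and 3 si-NC samples) were sequenced by the authors from Illumina TruSeq libraries. The submitters' processing notes name TopHat2 2.0.9, Bowtie2 2.0.6, HTSeq and DESeq 1.10.1, whereas the genome build, annotation and strand setting are not given in the sources used here. The authors deposited raw counts per Ensembl gene, and FPKM values that equal count divided by gene length and sample total. Groups and replicate numbers come from the sample labels.

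Counts were tested with edgeR 4.0.16 in R 4.3.3 (TMM, filterByExpr defaults, glmQLFit and glmQLFTest, no covariate), and p-values were adjusted by Benjamini-Hochberg over 15860 genes with a threshold of 0.05. The scripts were tested on simulated data. Depth was 18147028 to 24976517 counts per sample, and intervals and the floor of 3 counts cover counting error only where so stated. The p-values measure the spread between these samples, which edgeR estimates for each gene with help from all tested genes. For genes whose replicates vary much, such as IGFBP3 and IGFBP5, standard errors and intervals are therefore narrower than their own values alone would give. Symbols came from the gene name table and GENCODE 29 (GRCh38) for 33930 of 48162 identifiers. Named were the 10 genes, CNN3, up to 4 called genes per list with the largest change and at least 1 CPM, IGF1, IGF2, INS, IGF2R, IRS2, and the 5 genes most like IGFBP4. Named outside this rule, after their values were seen, were STC2, PPP2CA, CCN3, CCN5, IGFBPL1, IGFALS, PAPPA2, SOCS2, POLR2B and the markers CD14, CD3E, PTPRC and KRT5. The genes and lists were chosen with earlier results of these data known. PECAM1 was not analysed here. Alternatives were RLE, upper-quartile and total-count scaling, DESeq2 1.42.0, other filters, the replicate number as a block, limma 3.58.1 with a pseudocount of 1 or 0.1 on log2 FPKM, which understates the change of low genes, and leaving out each sample. The transcript length was added after the data were seen.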

Additional observations from a re-analysis of the deposited data

How the results depend on the processing

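The number of genes called was 2111, and it was 1073 with DESeq2, 1363 and 1353 with limma on log2(FPKM + 1) and log2(FPKM + 0.1), 585 with the first of these fits on all genes, and 1551 to 1747 when a sample was left out. The share of calls that were higher was 46.3%, 60.0% with total counts only, and 58.6% and 58.3% with the filtered limma fits. Of the 7 tested genes other than IGFBP4, the 2 calls became 1 with limma on all genes and 2 to 4 when a sample was left out (4 without si-CNN3 replicate 3). The log2 fold change of IGFBP4 was -0.39 with limma on log2(FPKM + 1), with or without the filter. IGFBP6 had 1.13 times the FPKM of IGFBP4 in si-NC and 1.14 times with the transcript length. The 20 calls in the pathway lists became 9 with limma on all genes, 14 with DESeq2 (which gave CCN2 and GRB10 no adjusted p), 25 with the replicate block and 14 to 19 when a sample was left out. IGFBP6, INSR and CNN3 kept their direction and side of the threshold in all 16 settings. Genes that passed in none of the settings changed sign: IGFBP5 to -0.014 (DESeq2), -0.016 (replicate block), and, without si-CNN3 replicates 1 and 3 and si-NC replicates 2 and 3, to -0.23, -0.0077, -0.18 and -0.085 (range -0.23 to 0.31), and IGFBP7 to 0.0016 without si-CNN3 replicate 3 and 0.016 without si-NC replicate 2 (range -0.11 to 0.016). The cause was not tested.

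Samples with the same replicate number correlated with 0.0770, 0.129 and 0.102 in their deviations from the group means. Samples with different numbers correlated with -0.0846 to -0.0170. The first 3 values are not over 0.1 for every pair, so the numbers were not taken as a pairing, although every sample correlated best with its own number. With the replicate block, 2727 genes were called and IGFBP3 passed (log2 fold change 0.12, adjusted p = 0.00272), as did IGF2R (0.063, adjusted p = 0.0158). Depth limits IGFBP1 and IGFBP2, which were not tested.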
